A study of Mus musculus with 24 samples.

Results

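The expression of 10 genes of glutathione synthesis, reduction and use was examined in mouse bone marrow after spaceflight, in wild-type mice and in mice lacking the transcription factor Nrf2. The genes are Gclc, Gclm, Gss, Slc7a11, Gsr, Gpx1, Gpx4, Gstm1, Gstm4 and Gstp1. They were chosen by name and function from the 54752 genes of the table, with earlier results of these data known. All 10 were among the 12373 genes that exceeded 1 TPM (a level per transcript length that adds up to the same total in every library) in at least 1 library and were tested.

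The 24 male C57BL/6 mice fell into 4 groups of 6: wild-type ground controls (GC-WT), wild-type flight mice (FL-WT), Nrf2-KO ground controls (GC-KO) and Nrf2-KO flight mice (FL-KO). Flight mice, aged 8 weeks at transport 3 weeks before launch, stayed in orbit for 31 days, and marrow cells of the right pelvis and tibia were collected 2 days after landing and stored frozen. Flight mice were acclimated at the Kennedy Space Center and controls were kept in Tsukuba, so that site, return to ground and flight cannot be told apart. The deletion is in the germline, so that every cell type of the KO mice lacks Nrf2. Each library came from 1 mouse. Nfe2l2, which encodes Nrf2, was at 17.05 to 26.06 TPM in GC-WT mice, 11.39 to 27.26 in FL-WT, 3.60 to 7.18 in GC-KO and 2.22 to 4.31 in FL-KO, with no overlap between genotypes. The remaining KO signal shows that reads still map to the locus, and no sequence of the allele was examined here. Haemoglobin, granule and B cell genes were all detected, and 2 of 3 hepatocyte markers were at 0 in all 24 libraries.

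Glutathione is a tripeptide of glutamate, cysteine and glycine and the main thiol that buffers oxidants in cells. Its synthesis starts with glutamate-cysteine ligase, made of the catalytic subunit GCLC and the modifier subunit GCLM, and ends with glutathione synthetase (GSS). Cysteine reaches the cell largely as cystine through the exchanger formed by SLC7A11 and SLC3A2. Glutathione peroxidases use glutathione to reduce peroxides, glutathione reductase (GSR) restores the oxidised form, and glutathione S-transferases couple it to electrophiles. Nrf2 activates many of these genes through antioxidant response elements, while SLC7A11 is also a known target of ATF4, which acts through amino acid response elements when amino acids are scarce.

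RefSeq promoters on GRCm38.p6 (250 bases before to 50 after the annotated start) were at hand for 8 of the 10 genes, in 13 entries, and not for Gclc and Gsr. They were searched on both strands for the antioxidant response element core TGACNNNGC, for its variant TGAGTCAGC and for the amino acid response element core TGATGCAAA. These motifs do not overlap in the windows. Of all 32851 promoters, 12.4% held the first, 0.414% the second and 0.271% the last. Among the 8 genes, TGACNNNGC was found only in Gclm, TGAGTCAGC only in Gstp1 and TGATGCAAA only in Slc7a11, which held it 2 times in opposite orientation. The 3 stretches that hold a match are shown since they belong to the genes of the rate-limiting step, of cystine import and of the pi class transferase, with matched letters in capitals. They run 5′ to 3′ on the strand of the gene and stop before the start site, at chr3:122245407-122245556 (plus strand) for Gclm, chr3:50443614-50443713 (minus strand) for Slc7a11 and chr19:4037967-4037996 (minus strand) for Gstp1.
Gclm: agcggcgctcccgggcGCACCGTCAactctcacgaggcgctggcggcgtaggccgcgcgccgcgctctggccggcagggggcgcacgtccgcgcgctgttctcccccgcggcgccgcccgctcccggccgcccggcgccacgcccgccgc
Slc7a11: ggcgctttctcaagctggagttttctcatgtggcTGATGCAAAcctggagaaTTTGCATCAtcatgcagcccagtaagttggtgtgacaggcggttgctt
Gstp1: tccaacgtgtTGAGTCAGCatccggggcgg
The match in Gclm begins 134 bases before the start and reads on the opposite strand. The match in Gstp1 begins 74 bases before it, and those in Slc7a11 begin 66 and 48 bases before it. A match is a description of the letters and does not show that a factor binds there. A missing match does not show that a gene lacks such elements, since only these windows and letter patterns were searched.

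The 10 genes differed widely in level on the TPM scale. Gpx1 was the highest, with a mean of 1412 TPM over the 24 libraries, followed by Gpx4 (168), Gsr (77.2), Gclm (39.6), Gstp1 (38.6), Gstm1 (19.4) and Gclc (9.25). Gss (1.55), Slc7a11 (1.26) and Gstm4 (1.13) were near the 1 TPM floor of the tested set. The modifier subunit was thus listed above the catalytic subunit of the same enzyme in every group. RSEM shares reads that map to several places among them, so levels of Gstm1 and Gstm4, of Gstp1 beside Gstp2, and of Gpx4 beside its copies are less certain than those of single-copy genes.

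**Figure D1:**
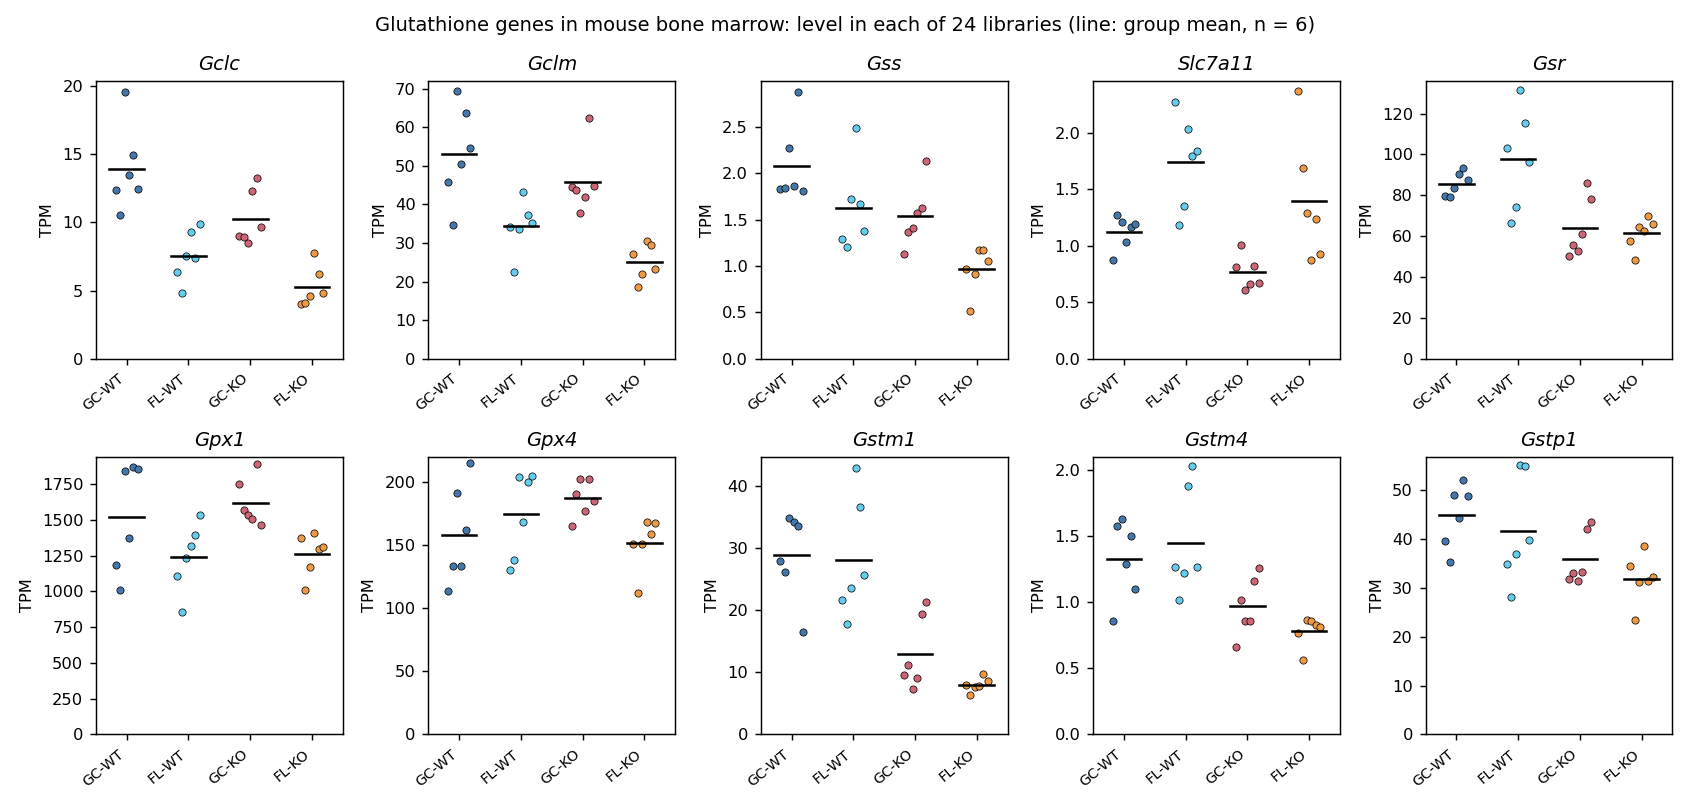
TPM of each of the 10 glutathione genes (vertical axes, starting at 0) in each library, by group (6 mice each); the line is the group mean. Gclc and Gclm sit lower in flight mice, Slc7a11 sits higher, and Gstm1 is lowest in Nrf2-KO mice, where FL-KO libraries lie between 6.34 and 9.64 TPM.

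TPM is a share of each library, and shares shifted in these data. Most tested genes were lower in the first-named group in every comparison: the log2 difference of the median tested gene was -0.24 for flight in wild-type mice, -0.29 for flight in Nrf2-KO mice, -0.22 for genotype on the ground and -0.25 for genotype after flight. In the same libraries, 5 small structural RNAs (Rn7s1, Rn7s2, Rn7sk, Rpph1 and Rmrp) took 35.4% to 59.6% of all TPM. Fold changes below are therefore differences of log2(TPM + 1), tested with limma over all 12373 genes and called where the Benjamini-Hochberg adjusted p was under 0.1. Differences of the 10 genes are also read against the median of all genes, and calls of these and other genes under 4 other scalings (small RNAs left out, median of ratios, quantile normalization, and a GC content and length trend removed). With the small RNAs left out, the medians were still negative, and under the other 3 scalings they lay within 0.1 of 0. In bulk marrow, fewer cells of a type and less RNA per cell cannot be told apart.

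The question of the flight comparison was whether glutathione genes differ after spaceflight. In wild-type mice 2 of the 10 genes fell (Gclc and Gclm), 1 rose (Slc7a11) and 7 were not called. Of all tested genes, 39% fell and 0.994% rose in this comparison, so that the share of members that fell was below the background. In Nrf2-KO mice 6 fell (Gclc, Gclm, Gss, Gpx1, Gpx4 and Gstm1), 1 rose (Slc7a11) and 3 were not called, beside 53.1% and 0.299% of all tested genes. No member reached a 2-fold change in either flight comparison, as 0.938% and 2.13% of tested genes did downwards. Under median-of-ratios scaling 2 fell and 5 rose in wild-type mice, beside 15.9% and 17.4% of tested genes, and 2 fell and 3 rose in Nrf2-KO mice, beside 21.6% and 18.1%. The median log2 fold change of the 10 genes on the TPM scale was -0.10 in wild-type and -0.34 in Nrf2-KO mice. Flight calls of Gclc, Gclm and Slc7a11 held in both genotypes under all 5 scalings. The other 4 flight calls, all in Nrf2-KO mice, were lost under at least 3 of the other 4 scalings.

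Gclc (chr9:77754535-77794485), the catalytic subunit, ranged from 10.6 to 19.6 TPM with a median of 13 in GC-WT mice. In FL-WT mice it ranged from 4.84 to 9.91 with a median of 7.47. All 6 flight mice lay below all 6 controls, which was so for 4.19% of tested genes. In GC-KO mice it ranged from 8.49 to 13.2 with a median of 9.36, and in FL-KO mice from 3.99 to 7.74 with a median of 4.73. The Nrf2-KO groups did not overlap either, as for 18.4% of tested genes in that comparison. The log2 fold change was -0.81 ± 0.16 (SE, adjusted p = 0.00106) in wild-type mice and -0.87 ± 0.16 (adjusted p = 0.00035) in Nrf2-KO mice. Relative to the median of all genes these were -0.56 and -0.58, and only 2.54% and 4.16% of tested genes had a lower value. Under the other 4 scalings the difference lay between -0.87 and -0.48 in wild-type and between -0.75 and -0.47 in Nrf2-KO mice.

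Gclm (chr3:122245557-122270732), the modifier subunit that lowers the feedback inhibition of the ligase, ranged from 34.7 to 69.4 TPM with a median of 52.6 in GC-WT mice. FL-WT mice had 22.5 to 43.3 with a median of 34.7, and the groups overlapped. GC-KO mice had 37.7 to 62.4 with a median of 44.2. FL-KO mice had 18.7 to 30.6 with a median of 25.2, all below the controls. The log2 fold change was -0.61 ± 0.16 (adjusted p = 0.00806) in wild-type and -0.84 ± 0.16 (adjusted p = 0.000413) in Nrf2-KO mice. It was smallest under median-of-ratios scaling, at -0.26 (adjusted p = 0.0756) and -0.42 (adjusted p = 0.00585). Within a library, the ratio of Gclc to Gclm stays the same when all genes are multiplied by 1 factor. Quantile normalization and trend removal can change this ratio. On deposited TPM it was 0.228 to 0.304 in GC-WT, 0.186 to 0.282 in FL-WT, 0.202 to 0.295 in GC-KO and 0.147 to 0.253 in FL-KO mice, and every pair of groups overlapped.

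Gss, the synthetase of the final step, was near the floor. Its median was 1.85 TPM (1.81 to 2.88) in GC-WT, 1.53 (1.21 to 2.49) in FL-WT, 1.49 (1.13 to 2.14) in GC-KO and 1.01 (0.52 to 1.17) in FL-KO mice. The flight difference was -0.24 ± 0.12 (adjusted p = 0.137) in wild-type and -0.37 ± 0.12 (adjusted p = 0.0198) in Nrf2-KO mice. The latter was not called under 3 of the other 4 scalings and was 0.03 once the GC content and length trend was removed.

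Slc7a11 (chr3:49892526-50443614), the cystine-carrying subunit of the exchanger, was the 1 member that rose. It ranged from 0.87 to 1.27 TPM with a median of 1.18 in GC-WT mice and from 1.18 to 2.27 with a median of 1.82 in FL-WT mice. In Nrf2-KO mice it ranged from 0.61 to 1.01 with a median of 0.74 on the ground and from 0.87 to 2.37 with a median of 1.27 after flight. The groups overlapped in both genotypes, by 1 low flight mouse in wild-type (FL-WT mouse 5, at 1.18) and by 2 in Nrf2-KO mice (FL-KO mice 9 and 12, at 0.87 and 0.93). The ratio of mean TPM was 1.55 and 1.83, and the log2 fold change of TPM + 1, which understates low genes, was 0.36 ± 0.13 (adjusted p = 0.0345) and 0.42 ± 0.13 (adjusted p = 0.0113). These values exceeded those of 98.9% and 99.7% of tested genes. Under the other 4 scalings the change was 0.43 to 0.70 in wild-type and 0.66 to 0.78 in Nrf2-KO mice, and with each library left out it stayed called, at 0.31 to 0.42 and 0.31 to 0.48.

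Its partner Slc3a2, the heavy chain that several amino acid exchangers share, fell from a mean of 32.8 to 18.9 TPM in wild-type mice (log2 fold change -0.78, adjusted p = 0.00286). It fell from 24.3 to 12.1 in Nrf2-KO mice (-0.91, adjusted p = 0.000466). The ratio of Slc7a11 to Slc3a2 within a library was thus 0.0288 to 0.0491 in GC-WT and 0.0725 to 0.128 in FL-WT mice. It was 0.0223 to 0.0477 in GC-KO and 0.0574 to 0.186 in FL-KO mice. Every flight mouse lay above every control of its genotype in this ratio of deposited TPM, which was chosen after the values were seen.

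**Figure D2:**
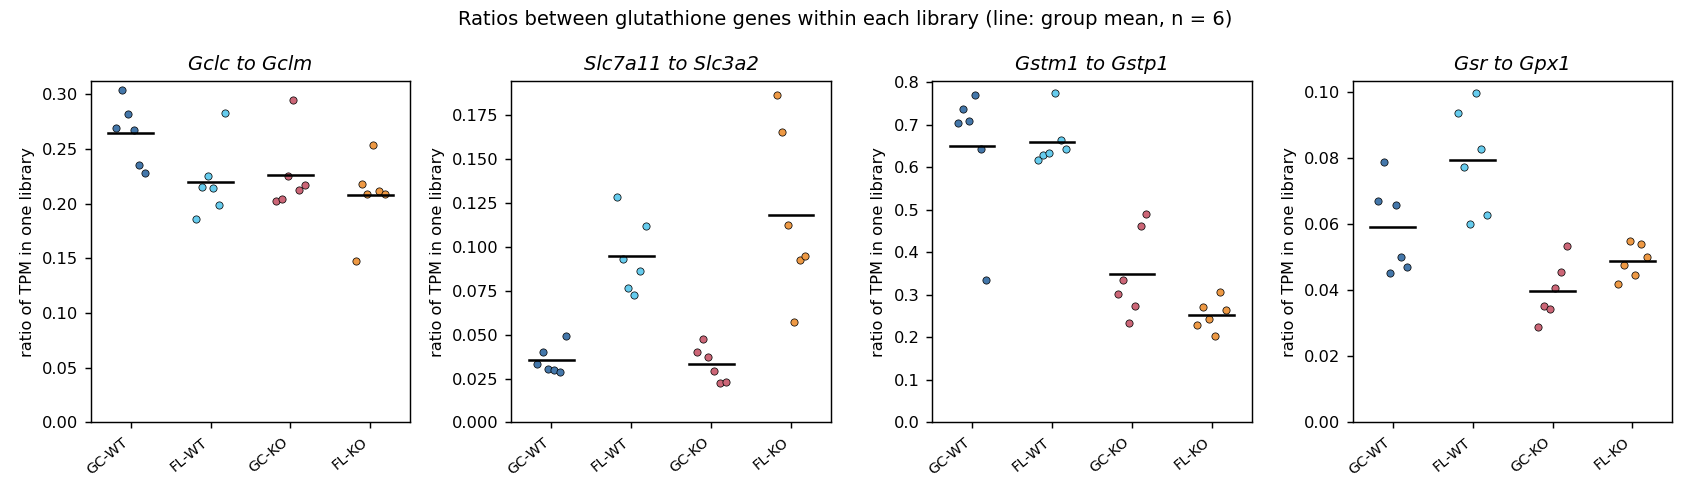
Ratio of the TPM of 2 genes within each library (vertical axes, starting at 0), by group, with the group mean as a line (6 mice each). The ratio of Slc7a11 to Slc3a2 is above 0.057 in all flight mice and below 0.050 in all controls, whereas the ratio of Gclc to Gclm overlaps in all groups.

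Gsr (chr8:33652523-33698163), which restores reduced glutathione with NADPH, was not called in flight on the TPM scale. It ranged from 79.4 to 93.5 TPM with a median of 85.4 in GC-WT mice and, more widely, from 66.3 to 132 with a median of 99.7 in FL-WT mice. In Nrf2-KO mice it ranged from 50.4 to 86.0 with a median of 58.4 on the ground and from 48.2 to 70.0 with a median of 63.6 after flight. The flight difference was 0.15 ± 0.15 (adjusted p = 0.431, 95% interval -0.15 to 0.46) in wild-type and -0.04 ± 0.15 (adjusted p = 0.835, -0.34 to 0.27) in Nrf2-KO mice. Since other genes fell, the wild-type value exceeded that of 95.4% of tested genes. Under median-of-ratios scaling Gsr was called higher in flight in both genotypes, by 0.50 and 0.39, so the direction in Nrf2-KO mice depends on the scaling.

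Gpx1 (chr9:108338903-108340343), the abundant cytosolic peroxidase, had a median of 1608 TPM (1007 to 1871) in GC-WT and 1276 (858 to 1534) in FL-WT mice. The difference was -0.28 ± 0.15 (adjusted p = 0.155). Gpx1 was called lower there with the small RNAs left out (-0.30, adjusted p = 0.00832) and under quantile normalization (-0.25, adjusted p = 0.0433). It had a median of 1555 (1465 to 1891) in GC-KO and 1306 (1010 to 1408) in FL-KO mice, with no overlap (-0.36 ± 0.15, adjusted p = 0.0544). Gpx4 (chr10:80047166-80056439), the peroxidase of membrane lipid peroxides, had a median of 148 TPM (114 to 215) in GC-WT and 184 (130 to 205) in FL-WT mice, a difference of 0.15 ± 0.15 (adjusted p = 0.429). Under median-of-ratios scaling alone Gpx4 was called higher in FL-WT mice (0.50, adjusted p = 0.0141). Its median was 188 (165 to 202) in GC-KO and 155 (112 to 168) in FL-KO mice (-0.31 ± 0.15, adjusted p = 0.085). Both Nrf2-KO differences were close to the median of all genes, with -0.07 and -0.02 relative to it. Both calls were lost under all 4 other scalings, where median-of-ratios scaling gave 0.08 and 0.13, and were lost without GC-KO mouse 11 or without FL-KO mouse 2, with an adjusted p of at most 0.139 for Gpx1 and 0.23 for Gpx4. That of Gpx4 was also lost without GC-KO mouse 2, 4, 9 or 12 or FL-KO mouse 1 or 4.

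Of the transferases, Gstm1 was called in flight in Nrf2-KO mice (-0.55 ± 0.22, adjusted p = 0.0517), a call that did not hold under the other 4 scalings, nor without GC-KO mouse 11, GC-KO mouse 12 or FL-KO mouse 2 (adjusted p of at most 0.158). In wild-type mice its difference was -0.06 ± 0.22 (adjusted p = 0.84). Gstm4 differed by 0.07 ± 0.11 and -0.14 ± 0.11 and Gstp1 by -0.13 ± 0.15 and -0.17 ± 0.15 in wild-type and Nrf2-KO mice, none of which was called on the TPM scale. Gstm4 was called higher in FL-WT mice under 3 of the other 4 scalings (0.25 to 0.33). Gstp1 turned to 0.21 (adjusted p = 0.0779) and 0.26 (adjusted p = 0.0256) under median-of-ratios scaling, called higher in flight in both genotypes.

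**Figure D3:**
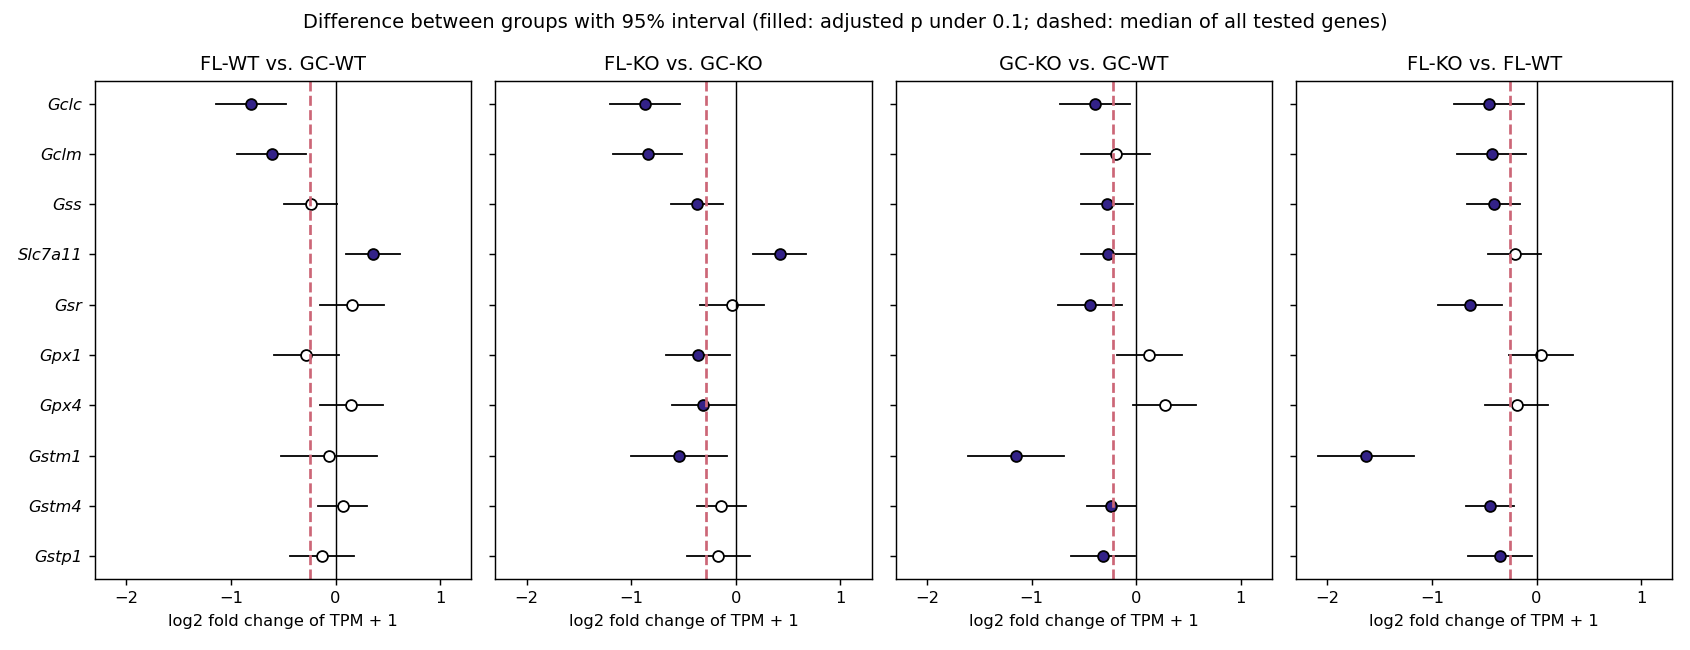
Difference of mean log2(TPM + 1) with its 95% interval (horizontal axes) for each gene in the 4 comparisons; filled points passed an adjusted p under 0.1 and the dashed line is the median of all tested genes. In both flight panels Gclc and Gclm lie left of the dashed line and Slc7a11 lies right of 0, and in both genotype panels Gstm1 lies farthest left.

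The genotype comparison asked how these genes differ in marrow without Nrf2. On the ground 7 of 10 fell in Nrf2-KO mice (Gstm1, Gsr, Gclc, Gss, Slc7a11, Gstp1 and Gstm4), none rose, and Gclm, Gpx1 and Gpx4 were not called. Of all tested genes 42.9% fell and 3.13% rose. After flight 7 of 10 fell again (Gstm1, Gsr, Gstm4, Gss, Gclc, Gclm and Gstp1) and none rose on the TPM scale, beside 47.2% and 1.91% of all tested genes. Under median-of-ratios scaling 1 fell and 2 rose on the ground, beside 27.9% and 29.8%, and 4 fell and 1 rose after flight, beside 31.2% and 35.2%. At an unadjusted p under 0.05 on the TPM scale none rose in either, as 3.29% and 1.91% of tested genes did. On the ground no member separated the genotypes without overlap, which 9.15% of tested genes did downwards. Both comparisons share samples with the flight comparisons, so the 4 sets of values are not independent. Of the 7 ground calls, those of Gstm1 and Gsr held with every single library left out. The calls of Gclc and Gss were lost without GC-WT mouse 6 or 8 or without GC-KO mouse 1, 2 or 4, where their adjusted p rose to at most 0.161 and 0.205. The calls of Slc7a11, Gstp1 and Gstm4 were lost without 10, 13 and 16 of the 24 libraries, with an adjusted p of at most 0.172, 0.19 and 0.235. After flight the call of Gstp1 was lost without FL-WT mouse 7 or 8 or FL-KO mouse 2, with an adjusted p of at most 0.177, and the other 6 held.

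Gstm1 (chr3:108012255-108017973), a mu class transferase, had by far the largest difference. It ranged from 16.4 to 34.8 TPM with a median of 30.7 in GC-WT mice and from 7.33 to 21.3 with a median of 10.4 in GC-KO mice. It overlapped through GC-WT mouse 10 (16.4) and through GC-KO mice 11 and 12 (19.4 and 21.3), while the other 4 GC-KO mice lay at 7.33 to 11.1. In FL-WT mice it ranged from 17.7 to 42.8 with a median of 24.6. In FL-KO mice it ranged from 6.34 to 9.64 with a median of 7.90, all below FL-WT mice, as for 20.6% of tested genes. The log2 fold change was -1.15 ± 0.22 (adjusted p = 0.000537) on the ground and -1.63 ± 0.22 (adjusted p = 3.08e-06) after flight. It was the only member with a 2-fold change, which 3.04% and 8.36% of tested genes had in this direction, and only 1.5% and 1.09% of tested genes had a lower value. Under the other 4 scalings it was -1.30 to -0.81 on the ground and -1.61 to -1.18 after flight, called in each.

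The ratio of Gstm1 to Gstp1 within a library was 0.336 to 0.770 in GC-WT and 0.233 to 0.490 in GC-KO mice. It was 0.618 to 0.775 in FL-WT and 0.203 to 0.308 in FL-KO mice. GC-WT mouse 10 had the lowest ratio of its group and also its highest neutrophil marker sum, 57040 TPM. The other 5 GC-WT mice had 31376 to 42630. Mouse 10 also had the highest erythroid and B lineage marker sums of its group, 63855 and 241 TPM. Its share of small RNAs, 41.0%, was the lowest of its group. In FL-WT mice too, the mouse with the highest neutrophil sum had the lowest ratio (mouse 3, 64519 TPM, ratio 0.618). The next ratio there was close, at 0.630 (mouse 5). This was not so in GC-KO mice (mouse 11, 65355 TPM, 0.461) or in FL-KO mice (mouse 12, 68017 TPM, 0.265). The part of neutrophils, of other cell types or of the small RNAs in the ratio was not tested. Gstm5, of the same gene cluster as Gstm1, was not called between genotypes on the TPM scale. Its difference was 0.27 on the ground and 0.02 after flight (adjusted p = 0.247 and 0.953). It was called higher in Nrf2-KO mice under 3 and 2 of the other 4 scalings.

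Gsr fell in Nrf2-KO mice, with a log2 fold change of -0.44 ± 0.15 (adjusted p = 0.021) on the ground and of -0.63 ± 0.15 (adjusted p = 0.00108) after flight. The call after flight held under all 5 scalings, at -0.55 to -0.19 in the other 4. The ground call was lost under median-of-ratios scaling (-0.09, adjusted p = 0.28). The ratio of Gsr to Gpx1 was 0.0453 to 0.0788 in GC-WT, 0.0602 to 0.0998 in FL-WT, 0.0288 to 0.0534 in GC-KO and 0.0419 to 0.0549 in FL-KO mice, and the flight genotypes did not overlap.

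Gstp1 (chr19:4035407-4037985), the pi class transferase whose promoter holds the rarer antioxidant motif, had a median of 46.6 TPM (35.4 to 52.2) in GC-WT and 33.1 (31.4 to 43.5) in GC-KO mice. It had a median of 38.4 (28.2 to 55.3) in FL-WT and 31.8 (23.4 to 38.6) in FL-KO mice. The genotype difference was -0.32 ± 0.15 (adjusted p = 0.0935) and -0.35 ± 0.15 (adjusted p = 0.0582), close to the threshold. It was called under 1 of the other 4 scalings and was slightly above 0 under median-of-ratios scaling, at 0.03 and 0.08. Gstm4 (chr3:108040408-108044894) had a median of 1.4 TPM (0.86 to 1.63) in GC-WT and 0.94 (0.66 to 1.26) in GC-KO mice (-0.24 ± 0.11, adjusted p = 0.0998), a call lost under 3 of the other 4 scalings and at 0.11 once the GC content and length trend was removed. After flight the medians were 1.27 (1.02 to 2.03) in wild-type and 0.82 (0.56 to 0.87) in Nrf2-KO mice with no overlap (-0.44 ± 0.11, adjusted p = 0.00217), but this difference was 0.01 once the GC content and length trend was removed.

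On the TPM scale, Gclc and Gss fell in Nrf2-KO mice both on the ground and after flight, and Gclm fell after flight and was not called on the ground. Gclc differed by -0.40 ± 0.16 (adjusted p = 0.0551) on the ground and by -0.45 ± 0.16 (adjusted p = 0.0246) after flight. Gclm differed by -0.19 ± 0.16 (adjusted p = 0.363) and -0.43 ± 0.16 (adjusted p = 0.0326), and Gss by -0.28 ± 0.12 (adjusted p = 0.0744) and -0.41 ± 0.12 (adjusted p = 0.00777). The genotype calls of Gclc and Gclm were lost under 3 of the other 4 scalings, where median-of-ratios scaling gave -0.07 in both comparisons for Gclc and 0.0033 after flight for Gclm. The call of Gss was lost under 3 of the other 4 scalings on the ground and under 2 after flight, and both differences were 0.12 with the GC content and length trend removed. Slc7a11 differed by -0.27 ± 0.13 (adjusted p = 0.0909) on the ground, a call lost under 3 of the other 4 scalings, and by -0.21 ± 0.13 (adjusted p = 0.189) after flight.

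The peroxidases were not called between genotypes on the TPM scale. Gpx1 differed by 0.13 ± 0.15 and 0.04 ± 0.15, and Gpx4 by 0.27 ± 0.15 and -0.19 ± 0.15. Relative to the median of all genes on the ground these were 0.35 and 0.49, and under median-of-ratios scaling both were called higher in GC-KO mice, by 0.48 (adjusted p = 0.00487) and 0.63 (adjusted p = 0.00139). After flight that scaling also called Gpx1 higher in Nrf2-KO mice, by 0.49 (adjusted p = 0.00331).

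**Figure D4:**
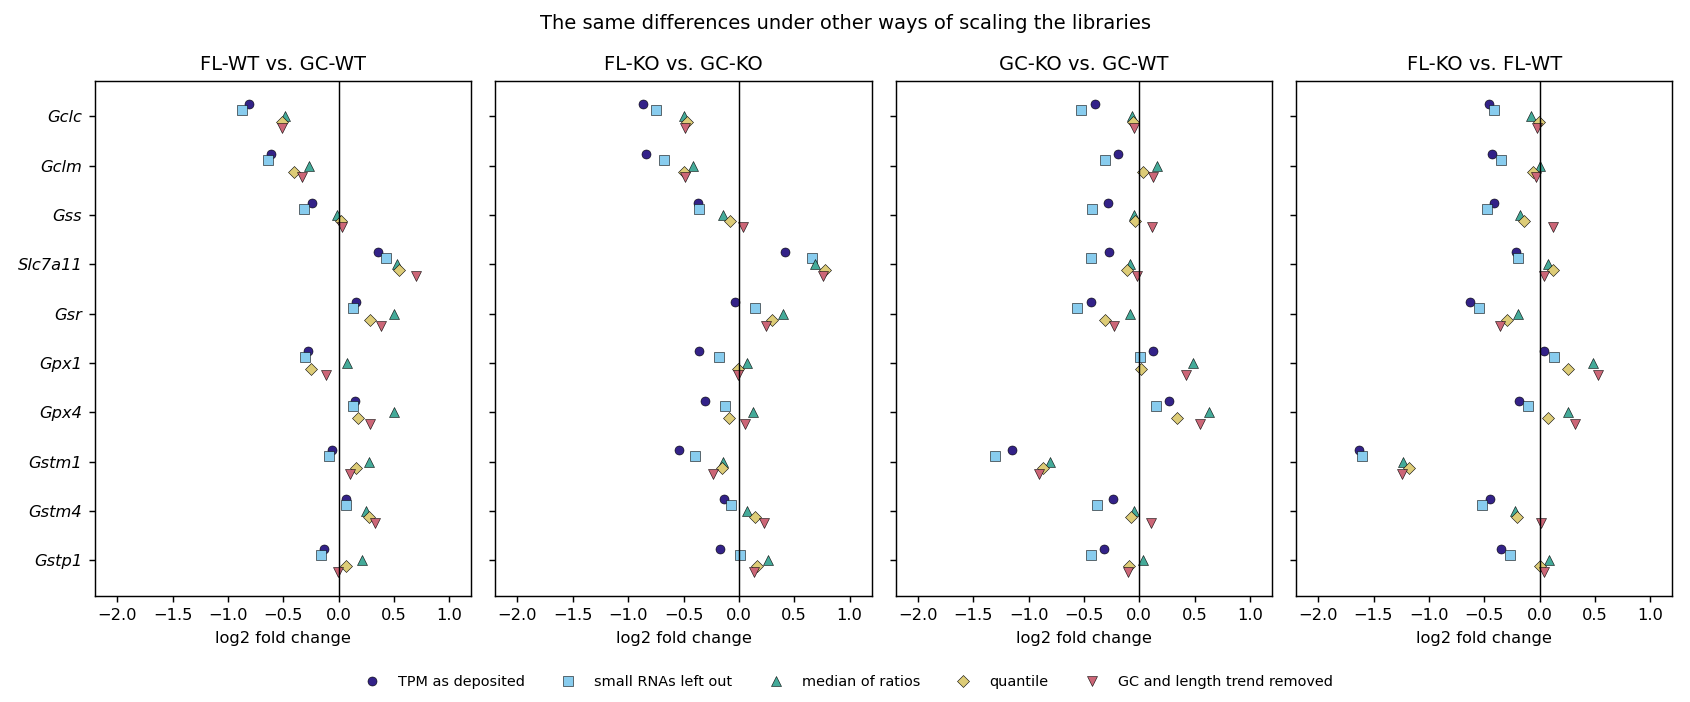
Log2 fold change of each gene (horizontal axes) in the 4 comparisons under 5 scalings of the libraries, 1 symbol each. Of 24 calls on deposited TPM, 9 keep their direction and their call under all 5: Gclc, Gclm and Slc7a11 in both flight comparisons, Gstm1 in both genotype comparisons and Gsr in FL-KO vs. FL-WT.

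None of the 10 genes had an interaction of flight and genotype at the threshold, and 2 of all tested genes did (0.0162%). At an unadjusted p under 0.05 the count was 1, Gpx4 (-0.46 ± 0.21, adjusted p = 1), beside 3.46% of tested genes. For Gclc the interaction was -0.06 (95% interval -0.53 to 0.41), for Slc7a11 0.06 (-0.30 to 0.42) and for Gstm1 -0.48 (-1.13 to 0.17). These intervals leave room for differences between genotypes as large as several of the effects above.

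Of 63 other glutathione genes taken by role, 35 exceeded 1 TPM in some library and 5 were at 0 in all 24. Among the 35, 14 fell and none rose in wild-type flight mice, and 19 fell and none rose in Nrf2-KO flight mice. Between genotypes 10 fell and 3 rose on the ground, and 12 fell and none rose after flight. Of all tested genes, 0.994%, 0.299%, 3.13% and 1.91% rose in these comparisons, in the order given. The shares that fell are near or below those of all tested genes, and at an unadjusted p under 0.05 on the TPM scale no gene rose either in the 3 comparisons with none. The split depended on the scaling. Under median-of-ratios scaling 6 fell and 11 rose in wild-type flight mice, and 10 and 11 in Nrf2-KO flight mice. For genotype 2 fell and 14 rose on the ground, and 5 and 16 after flight. Beside these, 15.9% of all tested genes fell and 17.4% rose in wild-type flight mice, and 21.6% and 18.1% in Nrf2-KO flight mice. For genotype the shares were 27.9% and 29.8% on the ground and 31.2% and 35.2% after flight. Median log2 fold changes of the 35 genes on the TPM scale were -0.19, -0.31, -0.09 and -0.16.

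The largest flight change among the 35 was in a supply gene. Slc1a5, which imports glutamine, fell from a mean of 35.4 to 15.6 TPM in wild-type mice (-1.14 ± 0.16, adjusted p = 5.09e-05). It fell from 25.9 to 10.4 in Nrf2-KO mice (-1.21 ± 0.16, adjusted p = 1.62e-05). The groups did not overlap in either genotype, as for 4.19% and 18.4% of tested genes downwards. Slc1a5 was the 1 gene of the 35 with a 2-fold change in each, which 0.938% and 2.13% of tested genes had downwards. Slc1a5 and Slc3a2 fell in FL-KO against FL-WT mice (-0.53 and -0.57), a call that held for each under 1 of the other 4 scalings. Their flight calls held in both genotypes under all 4. Gstt1, a theta class transferase, fell in flight too (-0.80, adjusted p = 0.000126, and -0.87, adjusted p = 3.46e-05), under all 5 scalings. It averaged under 5 TPM and was named after its value was seen.

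Among the glutaredoxins and glyoxalases 3 of 7 fell in both flight comparisons, near the 39% and 53.1% of all tested genes. Glrx5, a mitochondrial glutaredoxin of iron-sulphur cluster assembly, fell by 0.73 in wild-type and 0.69 in Nrf2-KO mice (adjusted p = 0.000565 and 0.00056). Hagh and Glo1, the glyoxalases, fell too (Hagh -0.71 and -0.77, Glo1 -0.34 and -0.42), whereas Glrx was at 0.24 and -0.02 and was not called on the TPM scale. The calls of Hagh held under all 5 scalings, those of Glrx5 under all 5 in wild-type and 4 in Nrf2-KO mice, and those of Glo1 were lost under 3 of the other 4. Of 4 membrane transferases Mgst3 fell in flight (-0.53, adjusted p = 0.0412, and -0.88, adjusted p = 0.00125), and Mgst1, Mgst2 and Alox5ap were between 0.07 and 0.28, not called on the TPM scale. The call of Mgst3 in Nrf2-KO mice held under all 5 scalings and that in wild-type mice was lost under 3, while Mgst1 and Mgst2 were called higher in flight under all 4 other scalings in both genotypes. Alox5ap, which presents arachidonate for leukotriene synthesis, was lower in Nrf2-KO mice (-0.29 and -0.34, adjusted p = 0.0729 and 0.0329), calls that were lost under 1 and 3 of the other 4 scalings.

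Chac2, which degrades glutathione, fell in flight (-0.62, adjusted p = 0.00975, and -0.75, adjusted p = 0.00158; the former call was lost under 1 of the other 4 scalings) and rose in GC-KO vs. GC-WT (0.46, adjusted p = 0.0329). Hagh (0.32, adjusted p = 0.0951) and Gstp2 (0.32, adjusted p = 0.0403) were the other 2 genes that rose in that comparison. All 3 did so under all 5 scalings. Gstp2 averaged under 5 TPM, and shared reads make its level less certain beside Gstp1, which was called lower in GC-KO mice. Gpx3, the secreted peroxidase, was lower in FL-KO mice against both FL-WT (-0.66, adjusted p = 0.0011) and GC-KO mice (-0.64, adjusted p = 0.00284), calls that each held under 2 of the other 4 scalings. Gsto1, an omega class transferase, was lower in Nrf2-KO mice on the ground and after flight (-0.43 and -0.46, adjusted p = 0.0188 and 0.00988), which each held under 2 of the other 4 scalings, and was at -0.02 and -0.06 in flight, not called on the TPM scale. All 4 tested exporters of conjugates fell in GC-KO mice, and 3 of 4 fell in FL-KO against FL-WT mice. Of all tested genes 42.9% and 47.2% fell there. Under median-of-ratios scaling 2 exporters fell in each, beside 27.9% and 31.2% of all tested genes.

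**Figure D5:**
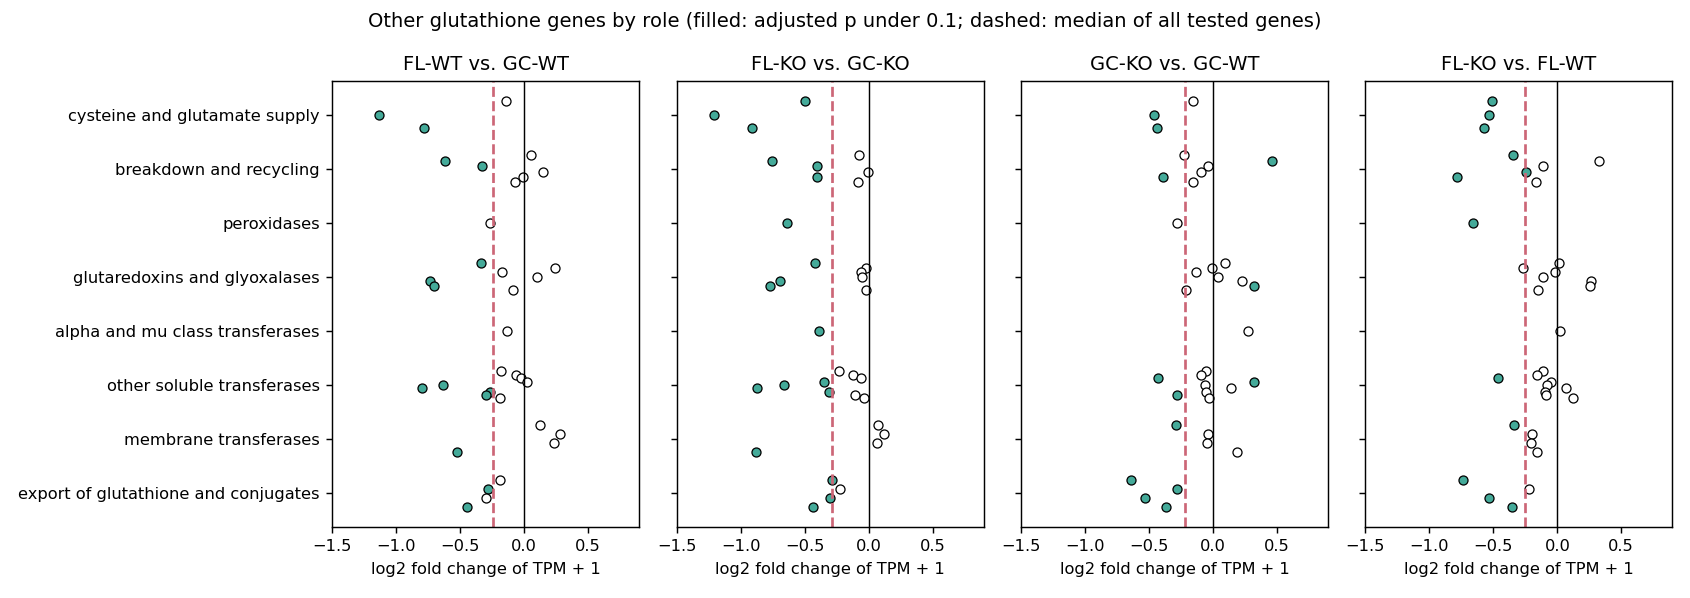
Log2 fold change of TPM + 1 (horizontal axes) of the 35 tested glutathione genes outside the 10, 1 point each, by role in the 4 comparisons; filled points passed an adjusted p under 0.1 and the dashed line is the median of all tested genes. The supply gene Slc1a5 lies farthest to the left in both flight panels, at -1.14 and -1.21.

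The pattern most like that of each gene over the 24 libraries was sought among the 5018 genes that averaged 5 TPM or more, after the median of each library was subtracted. The correlations share libraries and groups and are given as a description. The nearest were Cpox for Gclc (Pearson r = 0.95, and 0.88 with group means removed), Bsdc1 for Gclm (0.94 and 0.87) and Hist1h4k for Gss (0.74 and 0.82). They were Clec4d for Slc7a11 (0.92 and 0.80), Emp3 for Gsr (0.94 and 0.77), Cyb5a for Gpx1 (0.96 and 0.93) and Mrpl12 for Gpx4 (0.96 and 0.94). They were Alas1 for Gstm1 (0.97 and 0.88), Cd63 for Gstm4 (0.88 and 0.56) and Nans for Gstp1 (0.88 and 0.84). Clec4d, like Slc7a11, had higher means in flight, 49.9 against 32.1 TPM in wild-type and 44.9 against 30.8 in Nrf2-KO mice. Alas1 had means of 23.9 and 22.1 TPM in GC-WT and FL-WT mice, and of 11.5 and 7.86 in GC-KO and FL-KO mice.

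Markers of marrow cell types were called in the same comparisons: flight in wild-type and in Nrf2-KO mice, and genotype on the ground and after flight. In that order, 39%, 53.1%, 42.9% and 47.2% of all tested genes fell, and 0.994%, 0.299%, 3.13% and 1.91% rose. Of 9 erythroid markers 6 fell in wild-type and 7 in Nrf2-KO flight mice, and all 8 B lineage markers fell in both. Of 10 neutrophil markers 5 rose and none fell in FL-WT mice, while 1 rose and 2 fell in FL-KO mice. Between genotypes 5 neutrophil markers fell and 2 rose on the ground and 7 fell after flight, and 4 and 7 of 9 monocyte and macrophage markers fell, the former near the share of all genes. In each genotype comparison 5 of 8 B lineage markers fell, and 2 erythroid markers fell and 2 rose. Under median-of-ratios scaling 6 erythroid markers fell in each flight comparison (2 rose in wild-type mice), and 6 and 5 B lineage markers fell. Under that scaling 8 and 7 neutrophil markers rose in wild-type and Nrf2-KO flight mice, and 1 fell in the latter. Of all tested genes, 15.9% fell and 17.4% rose under it in wild-type flight mice, and 21.6% and 18.1% in Nrf2-KO flight mice. For genotype, 5 neutrophil markers fell and 3 rose under it, both on the ground and after flight. Of the monocyte and macrophage markers 3 fell and 2 rose on the ground, and 4 fell after flight. B lineage markers gave 5 that fell on the ground, and 2 that fell and 1 that rose after flight. Beside these, 27.9% of all tested genes fell and 29.8% rose on the ground, and 31.2% and 35.2% after flight. Summed over each list, erythroid markers ranged from 29460 to 63855 TPM in GC-WT, 43959 to 65231 in FL-WT, 53592 to 78051 in GC-KO and 45785 to 68221 in FL-KO mice, and neutrophil markers from 31376 to 57040, 45684 to 64519, 42628 to 65355 and 50689 to 68017. The sums of B lineage markers were 170 to 241, 83.8 to 213, 111 to 168 and 67.9 to 110 TPM, and those of monocyte and macrophage markers 467 to 635, 411 to 748, 348 to 554 and 298 to 424. A sum of TPM is set mostly by the most abundant genes of a list and need not follow the counts. The median neutrophil sum was 42474 TPM in GC-WT and 50299 in GC-KO mice, although 5 neutrophil markers fell and 2 rose there. The part of cell composition in the changes of the glutathione genes was not tested.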

How the data were processed

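RNA of frozen bone marrow cells (ISOGEN-LS) was made into stranded libraries (MGIEasy RNA Directional) for a DNBSEQ-G400 sequencer. Per the labels and methods, the authors aligned reads to mm10 by STAR 2.6.1 and derived TPM by RSEM 1.3.1. The table as deposited holds TPM for 54752 genes in 24 libraries, and its columns sum to 999999.5 to 1000001.1. It gives no read counts, so the depth is unknown and no counting interval can be given. IDs were named through GENCODE M21 without version (54723 matched), and GENCODE coordinates are on GRCm38.

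log2(TPM + 1) was fitted with limma 3.58.1 in R 4.3.3 over all 24 libraries, with a mean per group, for genes above 1 TPM in at least 1 library, and p-values were adjusted by Benjamini-Hochberg over 12373 genes. The script was tested on simulated data. Figures and ratios used Python 3.11.15, pandas 2.3.3 and matplotlib 3.10.9. The members and lists were chosen with earlier results of these data known. Values are given for all 10 members, for up to 4 other glutathione genes per role with the largest change among those of at least 5 TPM, for the nearest gene by correlation, and for Nfe2l2. A gene that this rule names is not reported here. Gstp2 and Gstt1 were named after their values were seen. Groups were taken from the labels. Alternatives are listed in the closing section. The scalings of other genes and marker lists were chosen after seeing the data.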

Additional observations from a re-analysis of the deposited data

Results flagged for a closer look

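In 40 sets of 6 mice (10 genes in 4 groups), 3 held a mouse far from the others, with a gap to the nearest mouse that took a share of the range above Dixon's 95% limit, which chance gives in about 1 of 20 sets. Gclm was at 62.37 TPM in GC-KO mouse 11, where the nearest GC-KO mouse was at 44.73. This mouse also had the lowest share of small RNAs of all libraries, 35.4%, and without it the Gclm difference in FL-KO vs. GC-KO stayed called. Gpx4 was at 112.42 TPM and Gstm4 at 0.56 TPM in FL-KO mouse 2, where the nearest FL-KO mice were at 150.91 and 0.77. This mouse had the highest share of small RNAs of its group, 59.3%. The part of the small RNAs in these values was not tested.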

How the results depend on the processing

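The depth of the libraries is unknown, and the values near 1 TPM (Gss, Slc7a11 and Gstm4) are the least precise. TPM is a share of the library, and counts moved with the scaling of libraries, with the fold threshold and with single libraries.

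Counts of the 10 genes that fell and rose are given here as pairs, fell first. FL-WT vs. GC-WT gave 2 and 1 as reported, 2 and 5 by median-of-ratios scaling, 2 and 3 under quantile normalization or with the GC content and length trend removed, and 4 and 1 with the small RNAs left out. FL-KO vs. GC-KO gave 6 and 1 as reported, 2 and 3 with each of the first 3 scalings, and 3 and 1 with the small RNAs left out, without a filter on low values or at an adjusted p under 0.05. GC-KO vs. GC-WT gave 7 and 0 as reported, 1 and 2 by median-of-ratios scaling, 2 and 1 under quantile normalization, 2 and 2 with the trend removed, and 2 and 0 without a filter or at an adjusted p under 0.05. FL-KO vs. FL-WT gave 7 and 0 as reported, 4 and 1 by median-of-ratios scaling, 3 and 1 under quantile normalization and 2 and 2 with the trend removed. With a fold change of at least 2, both flight comparisons gave 0 and 0 and both genotype comparisons 1 and 0. The count of interactions was 0 under every alternative. A pseudocount of 0.1, the exact rank-sum test, separate fits of each pair of groups, a filter of 1 TPM in at least 6 libraries and limma with a trend on mean expression kept each count within 1.5 times.

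With 1 library left out, the genes that fell and rose numbered 2 to 3 and 1 to 1 for flight in wild-type mice, 3 to 6 and 1 to 1 for flight in Nrf2-KO mice, 2 to 7 and 0 to 1 for genotype on the ground, and 6 to 8 and 0 to 0 for genotype after flight, and interactions 0 to 0. The count of 3 in FL-KO vs. GC-KO came without GC-KO mouse 11 or FL-KO mouse 2. In GC-KO vs. GC-WT the count that fell was 2 without GC-WT mouse 6 or 8 or GC-KO mouse 1 or 4, 3 without GC-KO mouse 2, and 4 without GC-WT mouse 7, GC-KO mouse 9 or FL-KO mouse 4, and 1 rose without GC-WT mouse 6 or 10.

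Log2 fold changes that were called before or after the change of setting turned sign under 4 settings, and the cause was not tested. Sign changes with no call on either side are not listed. With median-of-ratios scaling Gclm was at 0.0033 in FL-KO vs. FL-WT, Gpx1 at 0.076, Gpx4 at 0.13 and Gsr at 0.39 in FL-KO vs. GC-KO, and Gstp1 at 0.21 and 0.26 for flight in wild-type and Nrf2-KO mice and at 0.0319 and 0.0823 for genotype on the ground and after flight. Under quantile normalization Gsr was at 0.30 and Gstp1 at 0.16 in FL-KO vs. GC-KO, and Gstp1 at 0.00454 in FL-KO vs. FL-WT. With the trend removed, FL-KO vs. GC-KO gave 0.0555 for Gpx4, 0.25 for Gsr, 0.0335 for Gss and 0.23 for Gstm4. FL-KO vs. FL-WT gave 0.32 for Gpx4, 0.12 for Gss, 0.0135 for Gstm4 and 0.0441 for Gstp1, and GC-KO vs. GC-WT gave 0.12 for Gss and 0.11 for Gstm4.

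Ground and flight mice share mouse numbers. Of 12 same-numbered pairs, 7 had a correlation of deviations from group means over 0.1 (-0.03 to 0.27) and 5 correlated best with their own number. This is a hint from the data that some numbers pair mice, but since not every pair exceeded 0.1 and the labels give no shared litter or day, the number was not used in the reported fit. With the number as a replicate block, FL-WT vs. GC-WT gave 4 and 1, FL-KO vs. GC-KO 6 and 1, and 0 interactions. With the block and the GC content and length trend removed they gave 2 and 4, 2 and 3, and 0, and FL-KO vs. GC-KO gave 0.0555 for Gpx4, 0.25 for Gsr, 0.0335 for Gss and 0.23 for Gstm4.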
